A study of Mus musculus with 6 samples.

Results

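The 3544 peaks described here are accessible sites of mouse thigh muscle that lie far from the gene start annotated to them. They were chosen by annotated class, position and width, with earlier results of these data known. They are intergenic peaks on chromosomes 1 to 19 that are under 2500 bases wide. Each lies more than 200 kb from the transcription start site assigned to it in the authors' annotation. They make up 4.72% of the 75134 peaks of the series and 15.1% of its 23491 intergenic peaks of that width on those chromosomes. The series compares chromatin accessibility by ATAC-seq, in which a transposase cuts and tags open DNA, between 3 Prr14-KO libraries (replicates 4, 5 and 7) and 3 Prr14-WT libraries (replicates 3, 4 and 8) from frozen quadriceps femoris. The labels give no treatment, age, sex or deleted part of Prr14 and do not state whether the libraries came from different animals; the spread that the p-values rest on may then be technical. Whole muscle holds several cell types, and fewer cells of a type cannot be told apart from less accessible chromatin in each cell.

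Gene deserts are long stretches without protein-coding genes. Part of them is rich in enhancers, short elements bound by transcription factors that act on a promoter far away, often of a developmental regulator, and part lies in compact chromatin attached to the nuclear lamina, the protein mesh under the inner nuclear membrane. PRR14 is a lamina protein that binds HP1, the reader of methylated histone H3 in heterochromatin, and so tethers heterochromatin to the nuclear edge. Binding to the lamina was not measured in these files, and the name of a gene beside a peak means only that its start was the one annotated, not that the peak regulates it.

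In Prr14-KO muscle, calls in gene deserts were mostly losses of accessibility. Of the 3544 peaks 3255 had enough counts to be tested, and 243 of these (7.47%) were lower and 44 (1.35%) higher in KO at an adjusted p below 0.05 (edgeR quasi-likelihood test, Benjamini-Hochberg adjustment over all 73896 tested peaks). Over all tested peaks of the series, 4.23% were lower and 2.77% higher, or 7.01% in either direction. The median log2 fold change of KO over WT was -0.22 among the desert peaks and -0.01 among all tested peaks. Scaled with the authors' own library factors rather than TMM factors, the counts gave medians of -0.01 in the deserts and 0.19 over all tested peaks. The difference was -0.20, against -0.21 with TMM, but other factors shift all peaks nearly alike and can hardly change it. The split of calls under those factors was 95 lower and 40 higher, or 2.92% and 1.23% of tested desert peaks. Over all tested peaks 1.02% were lower and 2.19% higher. The authors' factors ran only from 0.977 in KO replicate 7 to 1.035 in KO replicate 5, and how they were made is not stated. Total counts in peaks ran from 7608514 to 12061822, and median-ratio size factors by DESeq2 from 0.762 to 1.21.

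Most desert peaks lie in unannotated DNA, but a few sit on the start of a non-coding RNA, and the sequence of such starts can be read from the reference. Of the 3544 peaks, 2764 (78.0%) overlapped no gene span in the RefSeq gene table of GRCm38.p6, 689 (19.4%) overlapped a long non-coding RNA, and 45 a protein-coding gene. A total of 77 overlapped a RefSeq start window, the 300 bases from 250 before to 50 after a start. Windows at 3 peaks that were called, each printed 5′ to 3′ on the strand of its RNA, carry in capitals the letters of AP-1 (TGANTCA), MEF2-like (CTA and TAG with any 4 bases between) and M-CAT (CATTCC, or GGAATG on the other strand) motifs, which are bound by FOS and JUN, by MEF2 factors and by TEAD factors.
Gm46397, chr13:102351466-102351765, minus strand, at a peak lower in KO: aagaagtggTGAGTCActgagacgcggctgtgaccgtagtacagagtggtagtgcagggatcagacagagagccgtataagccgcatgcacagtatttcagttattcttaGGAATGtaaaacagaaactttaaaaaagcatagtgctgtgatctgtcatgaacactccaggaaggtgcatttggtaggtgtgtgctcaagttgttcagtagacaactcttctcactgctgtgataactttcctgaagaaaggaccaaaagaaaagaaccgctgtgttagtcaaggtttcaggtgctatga
Gm33045, chr13:110627722-110628021, plus strand, at a peak higher in KO: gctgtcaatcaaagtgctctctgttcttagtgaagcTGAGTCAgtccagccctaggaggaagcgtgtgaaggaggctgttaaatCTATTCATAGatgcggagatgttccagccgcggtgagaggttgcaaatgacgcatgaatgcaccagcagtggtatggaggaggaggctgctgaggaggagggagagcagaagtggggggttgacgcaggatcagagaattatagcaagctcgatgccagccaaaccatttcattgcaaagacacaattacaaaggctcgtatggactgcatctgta
Gm31870, chr1:193655266-193655565, plus strand, at a peak higher in KO: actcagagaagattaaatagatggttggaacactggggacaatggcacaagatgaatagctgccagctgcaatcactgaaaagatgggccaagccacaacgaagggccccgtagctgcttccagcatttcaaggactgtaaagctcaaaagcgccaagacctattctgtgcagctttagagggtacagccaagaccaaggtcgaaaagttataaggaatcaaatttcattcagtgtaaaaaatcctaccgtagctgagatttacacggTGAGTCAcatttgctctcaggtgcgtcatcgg

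The sequences are those of RefSeq, GRCm38.p6, and a match is a description of letters, not a site of binding. The 3 printed windows are the only ones at called peaks with AP-1 letters. The other windows at called peaks hold none of the capitalised motifs, except for M-CAT letters at Gm33041. These others include a second window at Gm46397 and at Gm33045. Searched on both strands, AP-1 letters stood in 9.78% of the 92 windows at desert peaks and in 7.81% of all 32817 windows, MEF2-like letters in 4.35% and 3.69%, M-CAT letters in 17.4% and 14.7%, and E-box letters (CANNTG, bound by MYOD1 and related factors and not capitalised above) in 77.2% and 72.3%. The peak over the Gm46397 start (chr13:102351458-102353088) measured 9.10, 7.48 and 7.96 CPM in KO replicates 4, 5 and 7 and 27.1, 24.9 and 21.5 CPM in WT replicates 3, 4 and 8, where CPM is the count scaled to the TMM-adjusted total of the library. The peak over Gm33045 measured 24.4, 26.0 and 16.5 CPM in KO and 11.2, 17.9 and 11.5 CPM in WT. The peak over Gm31870 was weak, averaging below 2.12 CPM (log2 fold change 1.64, SE 0.54, edgeR adjusted p = 0.0401). Over Gm46397 every KO library lay below every WT library, while over Gm33045 the lowest KO library lay below the highest WT library. Among the 75 tested peaks at a start window 3 (4%) were higher and 4 (5.33%) lower in KO, with a median log2 fold change of -0.04. Among the other 3180 the counts were 41 higher (1.29%) and 239 lower (7.52%), with a median of -0.23. Over all tested peaks of the series 2.77% were higher and 4.23% lower.

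Farther from the start site the median fold change was lower and gains were rarer, with the share of losses highest at 600 kb to 1 Mb. At 200 to 250 kb, 45 of 836 tested peaks (5.38%) were lower and 15 higher. At 300 to 400 kb, 67 of 743 (9.02%) were lower and 12 higher. At 600 kb to 1 Mb, 34 of 318 (10.7%) were lower and 0 higher, and the median log2 fold change there was -0.38. Beyond 1 Mb the median was similar, at -0.37, but only 5 of 158 peaks (3.16%) were lower and 0 higher. These farthest peaks were the weakest, with a median of 1.72 CPM against 3.79 CPM at 200 to 250 kb, and among desert peaks below 2.12 CPM 5 of 1085 were lower and 1 higher. The median log2 fold change was also lower in weaker desert peaks, at -0.35 below 2.12 CPM, -0.19 up to 4.74 CPM and -0.16 above. Distance and level were not separated among the desert peaks. None of the peaks beside the limit was called. Peaks annotated to Dysf and Rab10, 199957 and 199976 bases away, had log2 fold changes of 0.04 and -0.27, and those annotated to Lpp and Fam43a, 200003 and 200009 bases away, had -0.04 and 0.09. The farthest peak of all lay 2665828 bases from the start of Pcdh9, a protocadherin gene, and had a log2 fold change of 0.23 (SE 0.67).

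**Figure D1:**
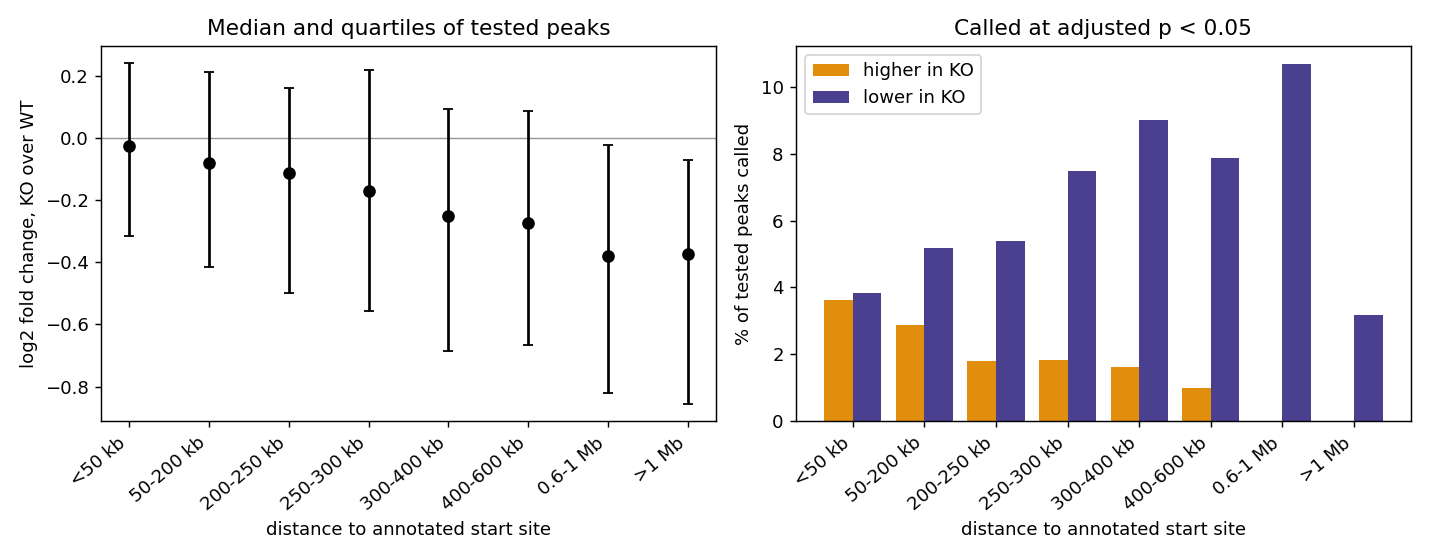
The left panel plots the log2 fold change of KO over WT (median as a point, quartiles as bars) and the right panel the percentage of tested peaks called higher or lower in KO, both by distance class of narrow autosomal intergenic peaks. The median was -0.38 at 600 kb to 1 Mb and -0.03 within 50 kb, and no peak beyond 600 kb was called higher.

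Intergenic peaks closer to genes were the nearest comparison. Among 7236 tested peaks at 50 to 200 kb, 5.17% were lower and 2.86% higher in KO, with a median log2 fold change of -0.08. Among 12335 within 50 kb, 3.82% were lower and 3.62% higher, with a median of -0.03. The peak classes differ in level, with medians of 3.01 CPM in the deserts, 4.51 CPM at 50 to 200 kb and 5.29 CPM within 50 kb. In peaks averaging above 4.74 CPM, which make up 1085 of the tested desert peaks, 16.4% of desert peaks, 7.85% of peaks at 50 to 200 kb and 5.93% of peaks within 50 kb were lower. The shares higher among these stronger peaks were 3.23%, 4.77% and 5.59%. Between 2.12 and 4.74 CPM the shares lower were 5.53%, 3.92% and 1.70% in the same order of classes. Below 2.12 CPM few peaks of any class were called lower, 0.461%, 0.695% and 0.383%. Median log2 fold changes above 4.74 CPM were -0.16, -0.05 and -0.01 in that order of classes. They were -0.19, -0.09 and -0.05 between 2.12 and 4.74 CPM, and -0.35, -0.22 and -0.16 below 2.12 CPM.

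Summed over all 3544 peaks, the deserts took a smaller share of the counts in every KO library than in any WT library. The share was 1.61%, 1.57% and 1.65% in KO replicates 4, 5 and 7, against 1.88%, 1.71% and 1.92% in WT replicates 3, 4 and 8. The means were 1.61% ± 0.0374 in KO and 1.84% ± 0.111 in WT (SD, n = 3 each; exact permutation test, two-sided, p = 0.1, the smallest that 3 against 3 libraries allow). WT replicate 4 lay closest to the KO libraries. For the 1085 stronger peaks the shares were 1.10%, 1.12% and 1.13% in KO and 1.25%, 1.26% and 1.25% in WT, and the difference of -0.140 percentage points was several times the SD within either group (0.0161 in KO, 0.00811 in WT; n = 3 each, exact permutation p = 0.1). In the 1085 peaks between 2.12 and 4.74 CPM the groups overlapped, at 0.323%, 0.302% and 0.334% in KO and 0.376%, 0.304% and 0.411% in WT (n = 3 each, exact permutation p = 0.3). They overlapped too in the 1085 weakest peaks, at 0.160%, 0.135% and 0.161% in KO and 0.211%, 0.126% and 0.218% in WT. The groups were also apart in peaks above 4.74 CPM at 50 to 200 kb. Their shares were 4.74%, 4.75% and 4.73% in KO and 4.86%, 4.85% and 4.82% in WT. In such peaks within 50 kb the groups overlapped, at 9.40%, 9.51% and 9.20% in KO and 9.09%, 9.37% and 8.87% in WT.

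The difference between peak classes was tested with 1 ratio per library. The log2 ratio of summed counts in desert peaks over peaks within 50 kb was -2.78, -2.80 and -2.70 in KO and -2.50, -2.65 and -2.47 in WT, a difference of -0.22. Against peaks at 50 to 200 kb it was -1.84, -1.85 and -1.79 in KO and -1.66, -1.74 and -1.64 in WT, a difference of -0.15. In both ratios all KO libraries lay below all WT libraries (exact permutation test, two-sided, n = 3 each, p = 0.1, adjusted p = 0.1 over the 2 ratios), which cannot pass 0.05 in a design of this size.

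**Figure D2:**
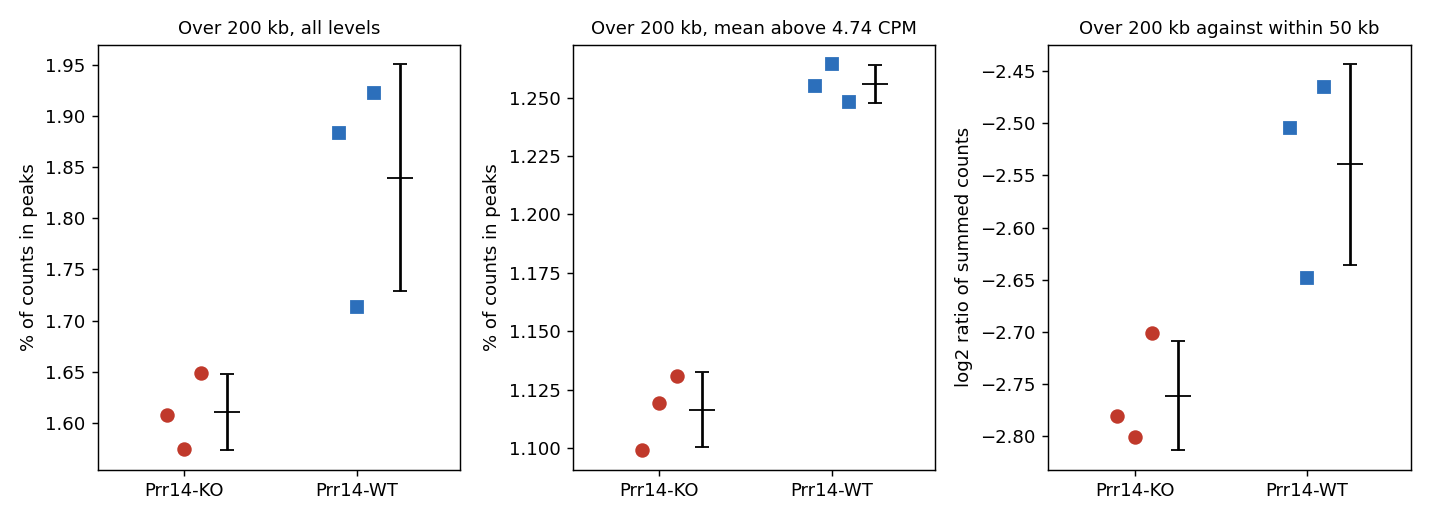
Each point is 1 library, Prr14-KO left of Prr14-WT, with the mean and SD beside it. The panels plot the percentage of counts in peaks that fell in all desert peaks, the same for desert peaks averaging above 4.74 CPM, and the log2 ratio of desert counts over counts in intergenic peaks within 50 kb; KO lies below WT in each, and most clearly among the stronger peaks (1.10% to 1.13% in KO, 1.25% to 1.26% in WT).

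Total counts in peaks ran from 9346968 to 12061822 in KO and from 7608514 to 11575061 in WT. The share of counts in mitochondrial peaks was 5.23% to 8.32% in KO and 5.85% to 11.6% in WT, and that in promoter peaks 50.4% ± 1.36 in KO and 50.2% ± 1.40 in WT (SD, n = 3 each, exact permutation p = 0.9). Skeletal muscle marker genes had promoter peaks at 6 of 6, with a summed level of 686 to 740 CPM in KO and 599 to 927 CPM in WT and 0 called. Promoter peaks of other cell types were found for 5 of 5 fibro-adipogenic (71.0 to 90.5 CPM in KO, 66.9 to 81.4 CPM in WT), 4 of 4 smooth muscle (24.5 to 29.3 CPM in KO, 22.3 to 26.5 CPM in WT, with Cnn1 higher), 3 of 4 satellite cell, 3 of 5 endothelial (none for Pecam1 and Emcn), 1 of 5 macrophage and 1 of 4 Schwann cell markers. Their part in the desert results was not tested.

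All 19 autosomes had more desert peaks lower than higher in KO, and on all 19 the median log2 fold change was below 0. Chromosomes 3 and 13 stood out in the count of losses. On chromosome 3, 38 of 234 tested desert peaks (16.2%) were lower and 0 higher, where 7.83% of all tested peaks of that chromosome were lower. On chromosome 13, 43 of 285 (15.1%) were lower and 2 higher, where 5.01% of all its tested peaks were lower. Together they held 81 of the 243 losses (33.3%) and 15.9% of the tested desert peaks. On the other chromosomes between 3.07% and 10% of desert peaks were lower. Without both chromosomes, an alternative chosen after seeing the data, 162 of 2736 tested desert peaks (5.92%) were lower and 42 (1.54%) higher. Their median log2 fold change was -0.21. Over all tested peaks of the series, both chromosomes included, 4.23% were lower and 2.77% higher.

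**Figure D3:**
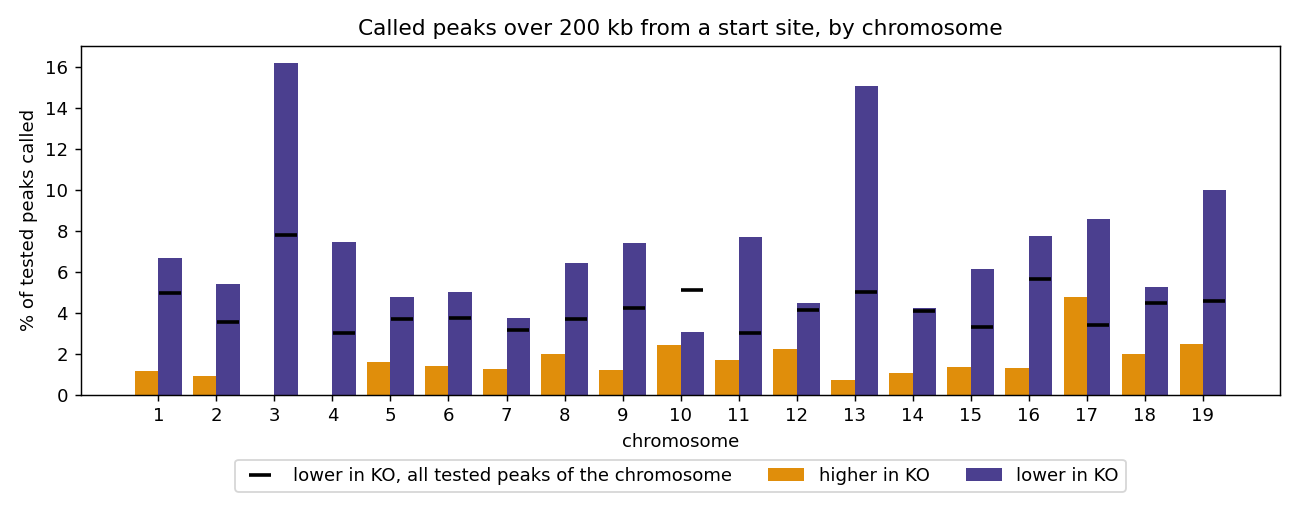
Percentage of tested desert peaks called higher or lower in KO on each autosome, with a black mark for the percentage of all tested peaks of that chromosome called lower. Lower calls reach 16.2% on chromosome 3 and 15.1% on chromosome 13 and stay at or below 10% elsewhere.

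The desert peaks were called from these same libraries, so large fold changes and separate groups follow in part from the call. The 243 lower peaks had log2 fold changes of -2.34 to -0.55 with a median of -1.18, and 167 of them were at least 2-fold lower. Their median level was 4.33 CPM in KO and 9.89 CPM in WT, and in 231 of them all 3 KO libraries lay below all 3 WT libraries. The 44 higher peaks had log2 fold changes of 0.56 to 2.02 with a median of 1.01, and their median level was 11.1 CPM in KO and 5.34 CPM in WT, with the groups apart in 41. Over all tested desert peaks, called or not, KO lay wholly below WT in 536 (16.5%) and wholly above in 153 (4.70%), against 11.2% and 9.17% of all tested peaks of the series. In the authors' deposited table, 73 desert peaks were lower and 35 higher at an adjusted p below 0.05, which is 3.11% and 1.49% of the 2348 with an adjusted p there, against 0.872% and 2.44% of all peaks; 1196 desert peaks have no adjusted p in it.

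The strongest loss lay between Pik3r1 and Cd180 on chromosome 13. The peak at chr13:102396899-102398335, 295941 bases upstream of Cd180, a gene for a Toll-like receptor relative of B cells and macrophages, measured 5.44, 4.19 and 5.77 CPM in KO and 22.4, 35.6 and 19.4 CPM in WT. Every WT library was more than 3 times any KO library. The log2 fold change was -2.34 (SE 0.23, edgeR adjusted p = 3.31e-21), with the SE taken as the fold change over the root of its F value.

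Next in order came a peak at chr3:21268305-21269557, 807721 bases upstream of Tbl1xr1, which encodes a subunit of the NCoR and SMRT corepressor complexes. It measured 8.99, 7.89 and 10.1 CPM in KO and 26.2, 44.7 and 29.0 CPM in WT (log2 fold change -1.89, SE 0.21, edgeR adjusted p = 1.82e-16). A peak at chr3:147163128-147165539 near Ttll7, a tubulin polyglutamylase gene, measured 12.3, 10.5 and 11.5 CPM in KO and 31.8, 52.3 and 36.9 CPM in WT (log2 fold change -1.82, SE 0.20). In both, WT replicate 4 was the highest library and the KO libraries lay close together.

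The other losses among the 10 with the smallest p were of like size. A peak at chr13:82595349-82596431, annotated to Cetn3, a centrin gene of the centrosome, fell to 3.24, 2.88 and 2.29 CPM in KO, against 11.01, 14.7 and 9.87 CPM in WT (log2 fold change -2.09, SE 0.27). Near Dusp10, a phosphatase gene of the p38 and JNK kinases, the peak at chr1:184241158-184242928 measured 12.2, 8.96 and 9.70 CPM in KO and 29.2, 34.4 and 25.3 CPM in WT (log2 fold change -1.53, SE 0.21). Peaks near Gm826, N6amt1 and Mef2c and another pair upstream of Cd180 had log2 fold changes of -1.70, -1.67, -1.85, -1.74 and -1.59. The last of these is the peak over the Gm46397 start printed above, and it is the only one of the 10 that overlaps a RefSeq gene span.

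Among the 44 gains, the 10 with the smallest p lay near genes of varied function. The largest was at chr18:3893523-3894416, 271862 bases upstream of Lyzl1, a lysozyme-like gene, with 15.2, 16.1 and 12.5 CPM in KO and 2.88, 3.40 and 4.61 CPM in WT (log2 fold change 2.02, SE 0.26, edgeR adjusted p = 3.82e-12). Near Map2k6, the gene of a kinase that activates p38, a peak at chr11:110632965-110634014 measured 13.5, 17.4 and 15.5 CPM in KO and 4.32, 3.68 and 5.53 CPM in WT (log2 fold change 1.79, SE 0.25, edgeR adjusted p = 2.07e-10). At both peaks no KO library lay under 12.5 CPM and no WT library over 5.53 CPM.

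A further 8 named gains had log2 fold changes between 1.00 and 1.82. Near Irs2, a docking protein of the insulin receptor, the peak at chr8:10653178-10654101 measured 16.0, 12.6 and 11.5 CPM in KO and 4.12, 7.27 and 6.19 CPM in WT (log2 fold change 1.18, SE 0.24). Near Tbx3, a T-box transcription factor of limb patterning, the peak at chr5:119309871-119310776 measured 20.4, 15.8 and 16.2 CPM in KO and 8.13, 9.11 and 8.42 CPM in WT (log2 fold change 1.02, SE 0.22). Near Runx1, a transcription factor that rises in denervated muscle, the peak at chr16:93106902-93107611 measured 13.4, 15.4 and 15.2 CPM in KO and 8.85, 4.60 and 8.69 CPM in WT (log2 fold change 1.00, SE 0.23). The others lay near Rpl38 and Rps24, which encode ribosomal proteins (1.82 and 1.15), Sptssa, a subunit of the enzyme that starts sphingolipid synthesis (1.22), Qk, an RNA-binding regulator of splicing (1.41), and Bckdhb, a subunit of branched-chain keto acid dehydrogenase (1.29). All 20 named peaks also had an adjusted p below 0.05 in the authors' deposited table.

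**Figure D4:**
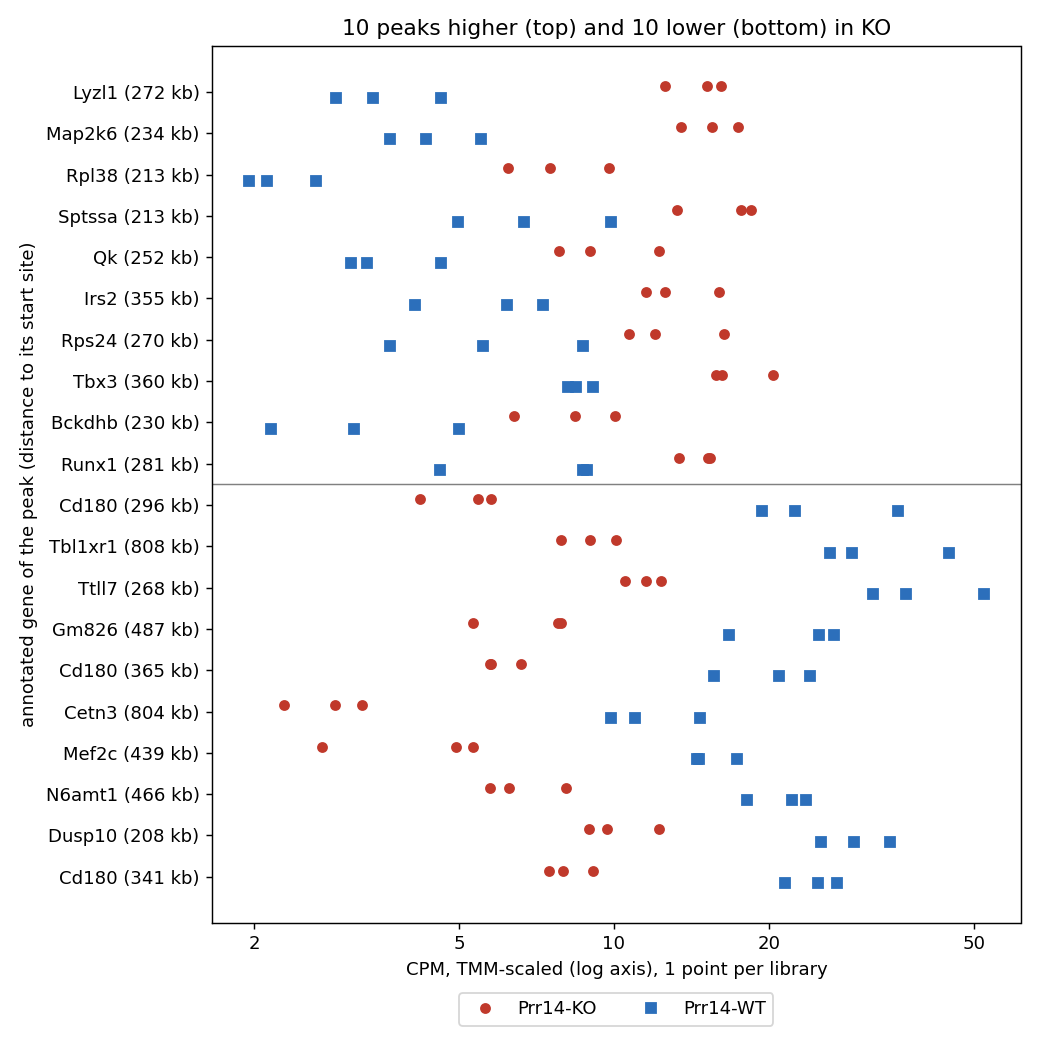
TMM-scaled CPM on a log axis in each library for the 10 higher and 10 lower desert peaks with the smallest p. Prr14-KO is drawn as circles and Prr14-WT as squares, and peaks are labelled by annotated gene and distance. The strongest loss, at Cd180, holds 4.19 to 5.77 CPM in KO and 19.4 to 35.6 CPM in WT.

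The strongest desert peaks of all were not among those called. The highest, at chr12:74803886-74804505 near Kcnh5, a potassium channel gene, measured 139, 109 and 122 CPM in KO and 137, 112 and 184 CPM in WT (log2 fold change -0.23, SE 0.17, edgeR adjusted p = 0.573). Its raw counts were nearly the same in all 6 libraries, from 1221 to 1401, although total counts differed. Of the 10 desert peaks with the highest level, 0 were called.

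Most losses stood alone, and some lay side by side. A run was defined as 2 or more consecutive tested desert peaks called the same way, at most 250 kb apart and with no other tested peak between them. There were 32 runs of lower peaks, holding 75 of the 243 losses (30.9%), and 9 of them had 3 or more peaks; with the authors' library factors there were 10. There were 3 runs of higher peaks, each of 2 peaks, holding 6 of the 44 gains (13.6%). By the same rule, runs held 28.9% of losses among intergenic peaks at 50 to 200 kb, 29.3% within 50 kb and 38.2% over all tested peaks, so the share in the deserts was near that in the other classes. Among adjacent tested desert peaks, log2 fold changes had the same sign in 61.8% of 719 pairs within 10 kb, 56.6% of 949 at 10 to 50 kb, 59.8% of 651 at 50 to 250 kb and 66.9% of 296 farther apart, so agreement in sign was not higher for closer pairs. The correlation of their log2 fold changes did fall with the gap, with Pearson r of 0.30, 0.19, 0.09 and 0.08 in the same order. Of 28 pairs within 10 kb with both called, 27 moved the same way, where most calls were losses. At 10 to 50 kb all 14 pairs with both called, and at 50 to 250 kb all 5, moved the same way. Pairs within 10 kb of each other among intergenic peaks within 50 kb of a start behaved alike, with 96 of 99 both-called pairs in the same direction. The Pearson r of all such pairs, called or not, was 0.33. Adjacent peaks share libraries and may share reads at their edges.

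A pair of runs held 4 peaks, the most of any. The one upstream of Cd180, at chr13:102324076-102353088, spanned 29013 bases. Its first peak measured 1.57, 1.40 and 2.65 CPM in KO and 6.48, 8.47 and 7.63 CPM in WT. Its second measured 6.59, 5.75 and 5.77 CPM in KO and 15.6, 24.0 and 20.9 CPM in WT. The KO libraries lay below the WT libraries in all 4 peaks, with log2 fold changes of -2.002 to -0.95. The other run of 4, at chr9:61638768-61658217 between Tle3, a Groucho-type corepressor gene, and Rplp1, a gene of the ribosomal stalk, had log2 fold changes of -1.30 to -0.61. Its strongest peak measured 31.4, 28.8 and 30.7 CPM in KO and 50.4, 67.2 and 43.7 CPM in WT.

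Runs of 3 lower peaks lay near Cetn3, Cd180, Slc7a11 and Noct, Actbl2, Adgrl2, Spred2 and Tbl1xr1. Slc7a11 encodes the cystine transporter and Noct the circadian phosphatase nocturnin, and the peak at chr3:50841692-50842905 between them measured 10.98, 10.4 and 10.9 CPM in KO and 21.5, 36.1 and 19.1 CPM in WT. The run near Spred2, an inhibitor of the RAS and ERK pathway, had the most even fold changes, from -0.96 to -0.84 on the log2 scale. Runs of 2 lower peaks included 1 each near Foxo1, the FoxO factor of muscle atrophy, Nrp1, a semaphorin and VEGF receptor, Acvr2a, the type II activin receptor that also binds myostatin, and Kcnj2, the Kir2.1 inward rectifier channel.

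The 3 higher runs lay near Rps24, Arid1b and Fut8. Near Arid1b, a subunit gene of BAF chromatin remodellers, the pair at chr17:4498197-4501297 measured 11.5, 6.49 and 6.87 CPM in KO and 5.56, 4.69 and 3.42 CPM in WT at its first peak, and 5.12, 5.10 and 6.04 CPM in KO and 2.47, 1.10 and 3.42 CPM in WT at its second. Of 15 tested peaks annotated to Arid1b, 2 were higher and 2 lower, the strongest loss being at chr17:4626223-4626553 (means 1.69 CPM in KO and 7.58 CPM in WT, log2 fold change -2.09). Near Fut8, a fucosyltransferase gene, 2 of 7 were higher and 1 lower. Neighbouring desert peaks of the same annotated gene thus differed in direction at both.

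Summed over whole stretches, lower calls again outnumbered higher ones. Desert peaks linked by gaps of at most 250 kb formed 340 stretches of 3 or more tested peaks, with 2479 peaks in them, and each was tested as 1 feature beside all other peaks. In KO 43 stretches (12.6%) were lower and 2 (0.588%) higher, against 4.13% and 2.8% of all 71757 features of that fit. Apart from the 340 stretches those features are single peaks. Sums hold more counts than single peaks, and stronger peaks were called more often, so the shares are not matched in level. Stretches of intergenic peaks nearer genes were not tested. With the authors' library factors 4 were lower and 0 higher. The share over all features was not computed for those factors. In 42 of the 43 lower stretches all KO sums lay below all WT sums, and in 20 every member had a log2 fold change below 0. The 43 were called from these same sums, so separate groups follow in part from the call. The shares among all 340 stretches were not computed. Of 71 stretches with 10 or more peaks, 12 were lower and 0 higher. Of the 43 lower stretches 10 were on chromosome 3, which held 26 stretches, and 4 on chromosome 13, which held 25. In 12 stretches called gains and losses stood side by side, as in the 47 peaks between Myc and Gsdmc (1 higher, 6 lower, summed log2 fold change -0.35, adjusted p = 0.231 by edgeR).

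The largest lower stretch by number of peaks ran from Pik3r1, the gene of the regulatory subunit of PI3-kinase, to Cd180. Its 30 peaks at chr13:101976293-102412344 summed to 148, 143 and 179 CPM in KO and 280, 330 and 308 CPM in WT (log2 fold change -0.97, SE 0.17, edgeR adjusted p = 1.33e-06). Of the 30, 13 were lower and 0 higher, and 27 had log2 fold changes below 0. The 16 peaks annotated to Pik3r1 held 4 of these losses and the 14 annotated to Cd180 held 9, while the 2 peaks with the largest positive values, 0.13 and 0.12, both lay in the Pik3r1 part. With the authors' library factors, which differ little between libraries although total counts do, this stretch did not pass (log2 fold change -0.77, edgeR adjusted p = 0.190).

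The most marked sum was that of 3 peaks near Cetn3 (chr13:82559264-82596431), with 11.4, 7.40 and 11.7 CPM in KO and 31.1, 45.0 and 32.0 CPM in WT (log2 fold change -1.83, SE 0.20, edgeR adjusted p = 6.51e-16). Its neighbour at chr13:82848442-83238592, upstream of Mef2c, the muscle transcription factor gene, had 5 of 9 peaks lower and summed to 37.5, 35.5 and 43.0 CPM in KO and 69.0, 81.5 and 61.1 CPM in WT (log2 fold change -0.87, SE 0.18). On chromosome 3, 23 peaks upstream of Tbl1xr1 (chr3:21224153-21840827) summed to 110, 104 and 109 CPM in KO and 163, 217 and 172 CPM in WT (log2 fold change -0.78, SE 0.17), with 9 lower and 6 above 0. Stretches near Ttll7, between Dchs2 and Sfrp2, and near Agtr1b, an angiotensin receptor gene, had log2 fold changes of -1.55, -1.21 and -1.11. Between Nrip1, a nuclear receptor corepressor gene, and Usp25, 14 of 14 peaks were below 0 and 5 were lower, with sums of 48.5, 53.3 and 58.5 CPM in KO and 97.0, 121 and 79.9 CPM in WT. With the authors' library factors the stretches near Cetn3, near Ttll7 and between Dchs2 and Sfrp2 kept their calls, while those near Agtr1b, between Nrip1 and Usp25, near Mef2c and near Tbl1xr1 did not (log2 fold changes -0.94, -0.71, -0.69 and -0.59, edgeR adjusted p = 0.0840, 0.271, 0.308 and 0.415).

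**Figure D5:**
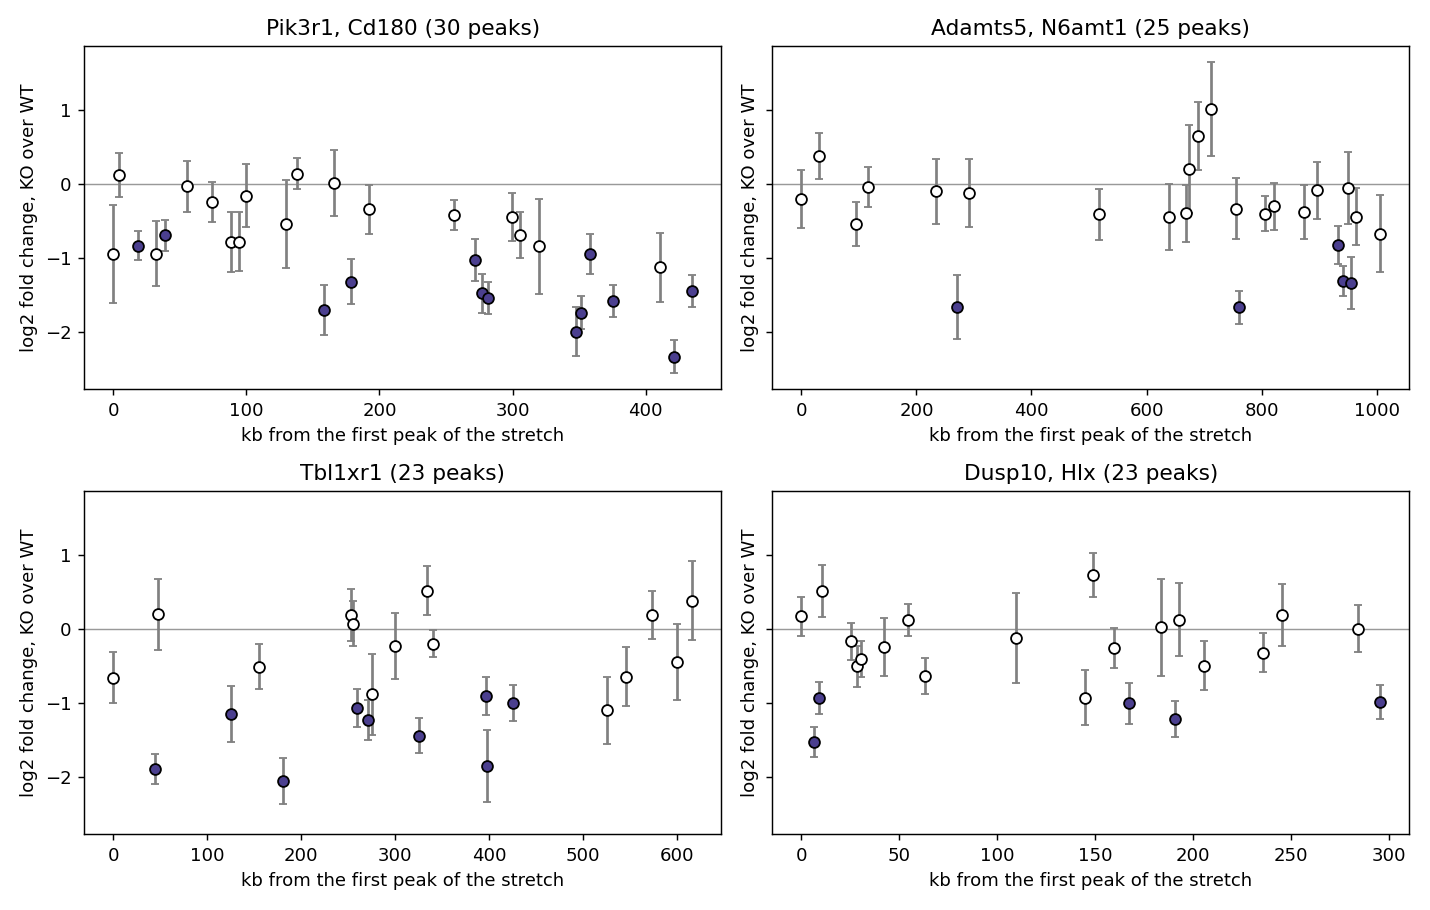
Log2 fold change of KO over WT with its SE for each desert peak of 4 long lower stretches, by distance in kb from the first peak of the stretch; filled points were called lower and open points were not called. Between Pik3r1 and Cd180 the losses gather toward Cd180, where 9 of 14 peaks were lower, against 4 of 16 annotated to Pik3r1.

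Both higher stretches were small. The 3 peaks between Egln3, a prolyl hydroxylase gene of the oxygen-sensing HIF pathway, and Sptssa summed to 33.0, 33.9 and 31.2 CPM in KO and 19.1, 19.9 and 25.9 CPM in WT (log2 fold change 0.60, SE 0.19, edgeR adjusted p = 0.0290). The 5 peaks at chr5:51040503-51250553 near Ppargc1a, the gene of the coactivator PGC-1 alpha that drives mitochondrial biogenesis, summed to 44.7, 45.8 and 51.2 CPM in KO and 26.9, 35.5 and 35.7 CPM in WT (log2 fold change 0.53, SE 0.18, edgeR adjusted p = 0.0496). All 5 were above 0 and 0 of them was called alone. With the authors' library factors neither was called (edgeR adjusted p = 0.165 between Egln3 and Sptssa and 0.245 near Ppargc1a). The stretch between Egln3 and Sptssa also lost its call without KO replicate 4, KO replicate 5, WT replicate 3 or WT replicate 4 (edgeR adjusted p from 0.0575 to 0.159), and that near Ppargc1a without any 1 of the KO replicates or WT replicate 3 (from 0.0938 to 0.298).

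By annotated gene, the 3544 peaks were assigned to 975 genes, of which 336 had 1 peak, 148 had at least 1 lower peak, 40 at least 1 higher peak and 11 both. The genes with the most desert peaks were Myc with 34, Gm826 with 28, Tbl1xr1 and Pik3r1 with 27 each and Acvr2a with 24. Myc, a growth-promoting transcription factor, had 4 lower peaks of 32 tested, the strongest 815376 bases downstream of its start (means 4.16 CPM in KO and 11.2 CPM in WT, log2 fold change -1.43). Losses were most numerous at Tbl1xr1 (11 of 27), Cd180 (9 of 14, with all 14 below 0), Mef2c (5 of 9), Acvr2a (5 of 23) and Pik3r1 (5 of 24). Maf, a fast-fibre transcription factor gene, had 2 of 18 peaks higher and 0 lower, and its stronger one at chr8:115480636-115481478 measured 32.7, 37.3 and 27.5 CPM in KO and 19.8, 25.2 and 11.7 CPM in WT.

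In 4 lists of genes that often border deserts, lower calls outnumbered higher ones, as they did over all desert peaks (7.47% lower, 1.35% higher). Transcription factors of muscle and limb had 178 tested desert peaks at 31 of 59 genes, of which 12 were lower (6.74%) and 5 higher (2.81%), with a median log2 fold change of -0.08. Losses included peaks at Mef2c, Bnc2, Nr2f1, Satb1, Tbx15 and Nfib, and the gains lay at Tbx3, Runx1, Maf and Sox5.

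Genes of cell adhesion and synapse organisation had 188 tested desert peaks at 59 of 81 genes, of which 7 were lower and 0 higher (3.72% lower, against 7.47% of all desert peaks), with a median of -0.43. Near Robo1, a receptor of the guidance cue SLIT, the peak at chr16:71962982-71963877 measured 1.36, 1.97 and 1.74 CPM in KO and 4.73, 5.06 and 6.19 CPM in WT. Of 39 peaks near secreted signals and growth factors 3 were lower (7.69%, at Adamts5, Tgfb2 and Gdf6) and 0 higher, and of 18 near channels and transporters 2 were lower and 0 higher. Both of the last lay near Kcnj2, where the stronger loss, at chr11:111462339-111462992, measured 1.57, 0.904 and 1.92 CPM in KO and 5.97, 5.89 and 6.32 CPM in WT (log2 fold change -2.05, SE 0.37).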

How the data were processed

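Tools listed in the submitters' processing notes are MACS2, BWA, Trimmomatic, DESeq2 1.6.3, bedtools and deepTools, with build GRCm38 and no roles given. The authors deposited 1 common peak list with raw counts per peak and library, a normalized signal that is the count divided by 1 factor per library, their own log2 fold change and p-values, a score for each peak, and an annotated gene, feature class and distance for each peak. How reads were counted, shifted or deduplicated is not given in the sources used here.

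From the counts, peaks passing filterByExpr (minimum count 10, minimum total 15) were tested with edgeR 4.0.16 (glmQLFit and glmQLFTest, TMM factors, R 4.3.3), two-sided, KO over WT, with Benjamini-Hochberg adjustment over 73896 peaks. Levels are TMM-scaled CPM. Of 3544 desert peaks, 289 did not pass the filter. Another 14 desert peaks of 2500 bases or more and 42 on the sex chromosomes were left out by rule. Libraries were compared by exact permutation. The members, gene lists and rules were chosen with earlier results of these data known. Named peaks are the 10 called peaks with the smallest p in each direction, and at each of them the groups did not overlap. Genes, runs and stretches are those with the most calls, the most peaks or the smallest p. A few others in the text were chosen after their values were seen. Alternatives were other library factors, no filter, DESeq2 1.42.0, limma-voom (limma 3.58.1), each library left out, other distances and gaps, and any width. The procedure was tested on simulated data. Total counts in peaks of 7608514 to 12061822 per library limit precision. Of the tested desert peaks, 0.461% of those below 2.12 CPM and 16.4% of those above 4.74 CPM were called lower. With no genome sequence used, GC content and motifs of the peaks themselves were not analysed here.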

Additional observations from a re-analysis of the deposited data

How the results depend on the processing

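The 20 named peaks kept their direction and their call in all 200 of their alternative values. They have the smallest p in these same libraries, so this follows in part from the choice. It does not cover the other called peaks. The counts moved more. With the authors' library factors, 95 desert peaks were lower (2.92%, against 1.02% of all tested peaks) and the median log2 fold change was -0.01 (-0.00927). With them 10 runs were lower, and 4 stretches were lower and 0 higher. Less the median of all tested peaks, the desert median was -0.20, against -0.21 with TMM, a difference that library factors can hardly change. Lower peaks in the authors' deposited table numbered 73. Beyond 500 kb, 53 of 693 tested peaks (7.65%) were lower and 2 (0.289%) higher, with a median of -0.34. DESeq2 gave 0 higher runs and limma-voom 1. Leaving out 1 library at a time gave 22 to 50 higher and 138 to 223 lower peaks, medians of -0.292 to -0.0846, 16 to 31 lower and 1 to 4 higher runs, 15 to 45 lower and 0 to 5 higher stretches. The shares lower were 4.04% to 6.60% of tested desert peaks and 1.89% to 4.18% of all tested peaks. The shares higher were 0.644% to 1.48% and 1.29% to 3.02%. Without KO replicate 5 or WT replicate 4, 138 and 146 peaks were lower, and without WT replicate 8 the median was -0.0846. Without KO replicate 4, KO replicate 5 or WT replicate 3, 23, 22 and 26 were higher. The share of counts in desert peaks differed by -0.292 to -0.188 percentage points, and the log2 ratios over peaks within 50 kb and at 50 to 200 kb by -0.28 to -0.18 and -0.18 to -0.13. Outside RefSeq gene spans, chosen after seeing the data, 198 of 2515 tested desert peaks (7.87%) were lower and 32 (1.27%) higher. Over all tested peaks the shares were 4.23% and 2.77%. The causes were not tested. How often differences of this size are detected below 2.12 CPM was not measured. No paired analysis was possible because the groups share only replicate number 4.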
